A study of Mus musculus with 2 samples.

Results

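The cytosolic ribosomal protein genes were examined as loci of open chromatin in F121-6, a hybrid mouse embryonic stem cell line. They were chosen by symbol from the protein-coding genes of the RefSeq annotation of GRCm38.p6, whose primary sequence is mm10. Symbols of Rpl or Rps followed by a number and at most 1 letter of a, x, l or p were taken, with Rplp0, Rplp1, Rplp2 and Rpsa. The rule used no measured value, but it was chosen with earlier results of these data known. It gave 81 of 21900 protein-coding genes: 30 of the small (40S) subunit, 43 of the large (60S) subunit, the 3 stalk genes and 5 paralogs with an l suffix. Rows of the deposited table were found for 71 of them, in 72 distinct windows of 50 kb out of 43941.

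The study set the parental genomes of F1 hybrid cells against each other in when they replicate, how they fold, what they express and how open they are. The part used here is ATAC-seq, an assay that inserts adapters into accessible DNA with a transposase. It holds 2 replicates of 1 group, with no treatment named: female F121-6 cells, with 1 chromosome set from 129 and 1 from castaneus (CAS) mice, grown in serum and LIF on mouse embryonic fibroblast feeders inactivated with mitomycin C. Each library was made from the nuclei of 200000 cells and read as pairs of 100 bp. The labels name 1 line and do not say whether the replicates were separate cultures, so spreads between them may be technical, and the genotype of the feeders is not stated there.

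Each row of the table gives 4 counts, for 129 and CAS in replicates 1 and 2. The column totals were 44026, 46128, 59812 and 59995. No value in the table was above 18, and whether a count stands for a read, a fragment or a site is not given in the sources used here. All counts are assigned to an allele. The number of sites that tell the alleles apart in each window is not given either, so its part in differences between windows was not tested. Marker loci served as a check of the labelled cell type. The 14 windows of 8 stem cell markers had a median of 24 counts over the 4 columns, and the 14 windows of 8 feeder fibroblast markers a median of 5. Summed over the windows a gene overlaps, the stem cell markers ran from 12 at Klf4 (1 window) to 89 at Esrrb (4 windows), with Pou5f1 at 19 and Nanog at 35 (1 window each). All fibroblast markers also had counts, from 2 at Thy1 (1 window) to 49 at Fn1 (3 windows). The part of feeder chromatin in the results below was not tested.

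Ribosomal proteins bind ribosomal RNA in the small subunit, which reads the messenger RNA, and the large subunit, which joins amino acids. The proteins are made in matched amounts for assembly, from housekeeping genes that are mostly short. Many of their transcripts begin with an oligopyrimidine tract, a C followed by a run of C and T, through which growth signals control their translation. Embryonic stem cells divide fast, which calls for a steady supply of ribosomes. Accessibility here is a measure of chromatin in a 50 kb window, not of transcription, and a window usually holds other genes too.

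The RefSeq promoter table (GRCm38.p6) held a start for 61 of the 81 genes. The sequences below are examples from loci with many and with few counts, and were not drawn as a balanced sample. Each runs from 60 bases before the start through the first 20 transcribed bases, 5′ to 3′ on the gene's strand. Capitals mark an oligopyrimidine run at the start (a C within 5 bases of the start and at least 4 pyrimidines after it) or the letters CCGGAAG, an ETS-type motif. In the same bases Rps19 (26 counts in its start window), Rpsa (22), Rpl10l (15), Rpl3l (9) and Rplp0 (5), not shown, had neither. Rplp2 encodes a stalk protein, Rps26 and Rps13 encode small-subunit proteins, Rpl14 and Rpl37 encode large-subunit proteins, and Rpl39l and Rpl32l are paralogs.
Rplp2: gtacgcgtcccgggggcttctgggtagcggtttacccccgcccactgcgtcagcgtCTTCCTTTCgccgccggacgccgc
Rps26: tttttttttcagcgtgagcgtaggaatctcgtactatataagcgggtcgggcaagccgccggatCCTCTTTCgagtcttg
Rpl14: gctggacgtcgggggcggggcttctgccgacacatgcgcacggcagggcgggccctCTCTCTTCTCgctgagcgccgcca
Rpl37: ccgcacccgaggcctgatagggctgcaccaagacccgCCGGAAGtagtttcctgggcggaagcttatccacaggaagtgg
Rps13: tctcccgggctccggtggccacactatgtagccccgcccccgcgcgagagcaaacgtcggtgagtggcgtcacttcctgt
Rpl39l: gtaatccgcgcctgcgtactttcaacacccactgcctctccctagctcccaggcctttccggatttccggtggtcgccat
Rpl32l: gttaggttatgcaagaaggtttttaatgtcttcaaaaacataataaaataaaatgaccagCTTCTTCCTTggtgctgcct
They lie at chr7:141447591-141447670 (plus strand), chr10:128626487-128626566 (minus strand), chr9:120571457-120571536 (plus strand), chr15:5116553-5116632 (plus strand), chr7:116334171-116334250 (minus strand), chr16:10170168-10170247 (plus strand) and chr10:20208379-20208458 (plus strand).

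An oligopyrimidine run was found at the annotated start of 28 of the 61 genes (45.9%) and of 3284 of 17492 protein-coding genes (18.8%). Among the genes shown, Rplp2, Rps26, Rpl14 and Rpl32l had one. In the promoter window of 250 bases before to 50 after the start, searched on both strands, CCGGAAG was present in 24 of 61 (39.3%) against 11.9% of all coding promoters. Besides Rpl37, it lay in the promoter windows of Rplp2, Rps26 and Rpl39l, outside the bases shown. The longer CCGGAAGTG, which contains it, was present in 1 (1.64% against 2.77%). GGGCGG, an SP-type motif, was present in 35 (57.4% against 46.3%). AANATGGCG, a YY1-type motif, was present in 5 (8.20% against 3.28%), and TATAAA in 7 (11.5% against 13.3%). The median number of CG dinucleotides was 21 in these promoters and 13 over all coding promoters. These are matches of letters, and annotated starts can be off by some bases.

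The first comparison asks how open these loci were. Ribosomal protein gene windows were among the windows of the table with more allele-assigned counts, on both alleles and in both replicates. Their median count over the 4 columns was 14, with a range of 1 to 35, against 3 over all windows and 6 over the 11076 windows that hold the start of any protein-coding gene. All 4 columns had a count in 64 of the 72 windows (88.9%), against 39.8% of all windows and 65.4% of windows with a coding start. Of the 72 windows 40 (55.6%) held more than 12 counts, as did 8.21% of all windows and 17.4% of the other windows with a coding start. The mean count per window was 3.46 (129) and 3.65 (CAS) in replicate 1, then 3.60 and 3.44 in the other, against 1.00, 1.05, 1.36 and 1.37 over all windows. No test was made of the list against other windows.

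**Figure D1:**
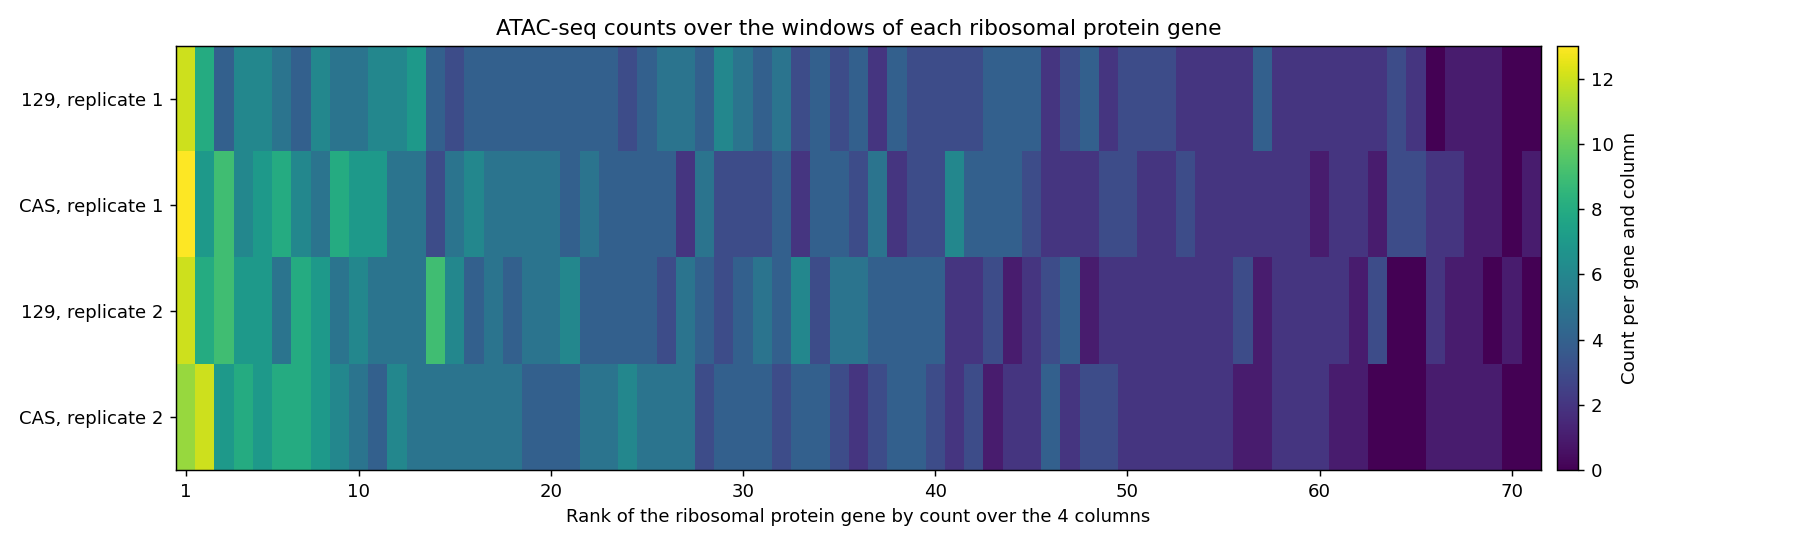
Heat map of counts for the 71 ribosomal protein genes with a row, summed over the windows each gene overlaps; the x axis orders genes by their count over the 4 columns, rows are allele and replicate, and colour is the count. Most genes have a similar colour in all 4 rows, and Rplp2, at the left end, overlaps 2 windows.

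Among the start windows with the most counts was that of Rpl37, whose protein binds zinc in the large subunit (chromosome 15, 5100001 to 5150000). Given as 129 and CAS, replicate 1 before replicate 2, its counts were 4 and 9, then 9 and 7. Rps13, of the small subunit, had 6 and 6, then 7 and 8 in a window where no other coding gene starts (chromosome 7, 116300001 to 116350000). Every column of these windows was above the genome mean. Rps19, needed for maturation of the small subunit and mutated in Diamond-Blackfan anaemia, had 4 and 6, then 8 and 8. Rps29, a zinc finger protein of the small subunit, had 6 and 5, then 7 and 7. These windows held 4 and 5 coding starts. The large-subunit gene Rpl18 had 5 and 8, then 5 and 6. Rps15a, of the small subunit, had 5 and 7, then 6 and 5. Rpl23a, whose protein lies at the exit of the nascent chain tunnel, had 6 and 7, then 5 and 4. Rps6, whose protein S6 kinase phosphorylates, had 6 and 5, then 5 and 6. Both alleles carried counts in each of these windows. Across them the larger count of a replicate was at times that of 129 and at times that of CAS.

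The stalk proteins recruit elongation factors to the large subunit, and their loci differed widely. Rplp2 overlapped 2 windows, with 6 and 6, then 7 and 6 in that of its start (chromosome 7, 141400001 to 141450000) and 6 and 7, then 5 and 5 in the next. Rplp1 had 4 and 3, then 5 and 2 (chromosome 9, 61900001 to 61950000). Rplp0, the scaffold of the stalk, had 1 and 2, then 1 and 1 (chromosome 5, 115550001 to 115600000). The values of Rplp0 were near the mean of all windows, and those of Rplp2 far above it. The windows of Rplp2 held 5 coding starts each, and those of Rplp1 and Rplp0 held 2 each. Rpsa, the small-subunit protein also named laminin receptor, had 7 and 5, then 5 and 5.

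The subunits did not separate. Small-subunit gene windows had a median of 14.5 counts (28 windows, quartiles 10 and 21.3) and large-subunit gene windows 13 (37 windows, quartiles 8 and 18), so their quartiles overlapped. The lowest small-subunit locus was Rps10, with 1 and 1, then 0 and 1. The lowest large-subunit locus was Rpl4, with 1 in each of the 4 columns. None of the 71 genes had 0 counts in all columns.

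The 5 windows of paralogs with an l suffix ranged from 1 to 15 counts, with a median of 8. Rpl39l, a paralog known for expression in the testis, had 0 and 1, then 0 and 0 (chromosome 16, 10150001 to 10200000). Rpl32l had 0 and 0, then 1 and 0 (chromosome 10, 20200001 to 20250000), whereas Rpl32 had 4 and 5, then 5 and 5. Rps27l, a p53-responsive paralog, had 2 in each of the 4 columns, and Rps27 had 3 and 4, then 5 and 3. The counts of Rpl32l and Rps27l lay below those of their namesakes in every column. Rpl3l, known from muscle, shares its window with Rps2 (3 and 2, then 2 and 2), so its own part cannot be told apart, and Rpl3 had 4 and 4, then 3 and 4. Rpl10l, a retrocopy known from the testis, had the most counts of these, with 3 and 2, then 6 and 4 in a window with no other coding gene (chromosome 12, 66250001 to 66300000). Rpl10 and Rpl39 lie on the X chromosome, for which no rows were analysed here. These differences are of a few counts and were not tested.

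Median counts were higher where more coding genes start in a window, so windows were set beside others with as many starts. Of 71 ribosomal protein gene windows with a coding start, 56 were above the median of other windows with the same number of starts, 5 were at it and 10 below. In the 15 member windows with 1 start the median was 15 (range 1 to 27), against 6 in 7530 other windows. With 2 starts it was 11 against 7, with 3 it was 15 against 8, with 4 it was 16 against 8 and with 5 it was 23 against 10. With 6 or more starts it was 11, in 4 windows, against 10.5. In 13 windows the ribosomal protein gene was the sole coding gene known to start, and their median was 15 (range 1 to 27). The gap between the medians of members and other windows was largest with 5 starts and smallest with 6 or more, a class of 4 member windows. Rps26 (4 and 3, then 9 and 5), Rpl14 (4 and 5, then 4 and 5), Rpl34 (4 and 4, then 6 and 4), Rps23 (5 and 2, then 5 and 5) and Rps14 (5 and 4, then 3 and 5) were among these 13. Rpl5 (2 and 1, then 3 and 0) and Rps24 (2 and 3, then 2 and 2) were lower windows of the same kind.

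**Figure D2:**
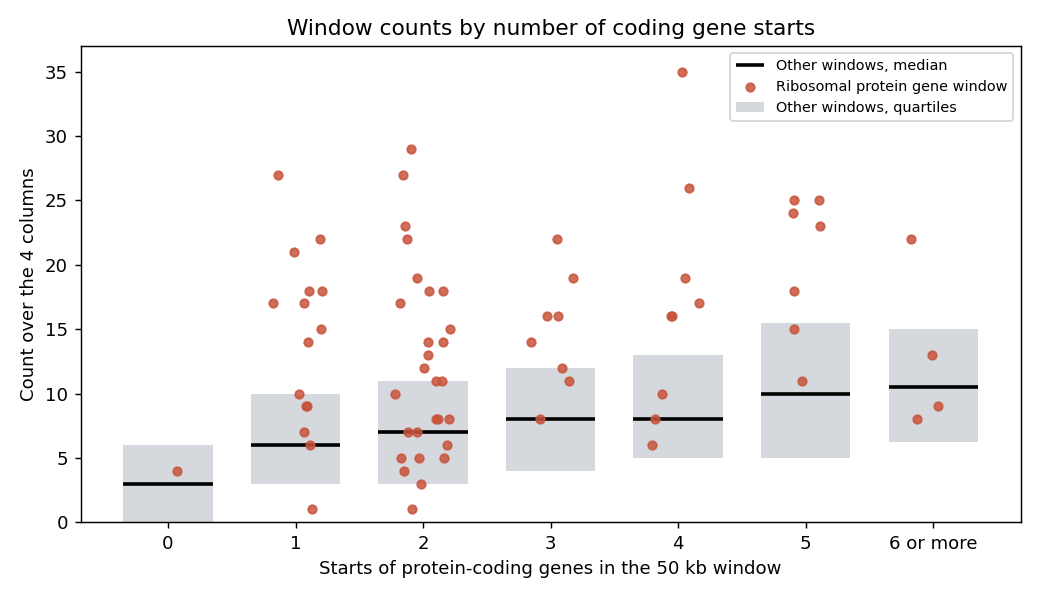
Points are the 72 ribosomal protein gene windows, by the number of protein-coding genes that start in the window (x axis) and their count over the 4 columns (y axis); grey bars are the quartiles and black lines the medians of all other windows. With 1 start the ribosomal protein gene windows have a median of 15 and the others of 6.

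Counts were highest in the window of the start. Around 68 start windows, the mean over the 4 columns was 14.2 counts in the start window, 6.95 in the window 50 kb before it and 7.64 in the window 50 kb after it along the chromosome. At 500 kb it was 5.88 and 3.80. Of the 61 start windows with both neighbours in the table, 45 (73.8%) were higher than both and 1 was lower than both. Among 10311 other windows with a coding start the shares were 39.7% and 16.9%. The start windows also held more coding starts (2.71 on average) than their neighbours (1.03 and 1.19), and the part of those further genes in the peak was not tested.

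**Figure D3:**
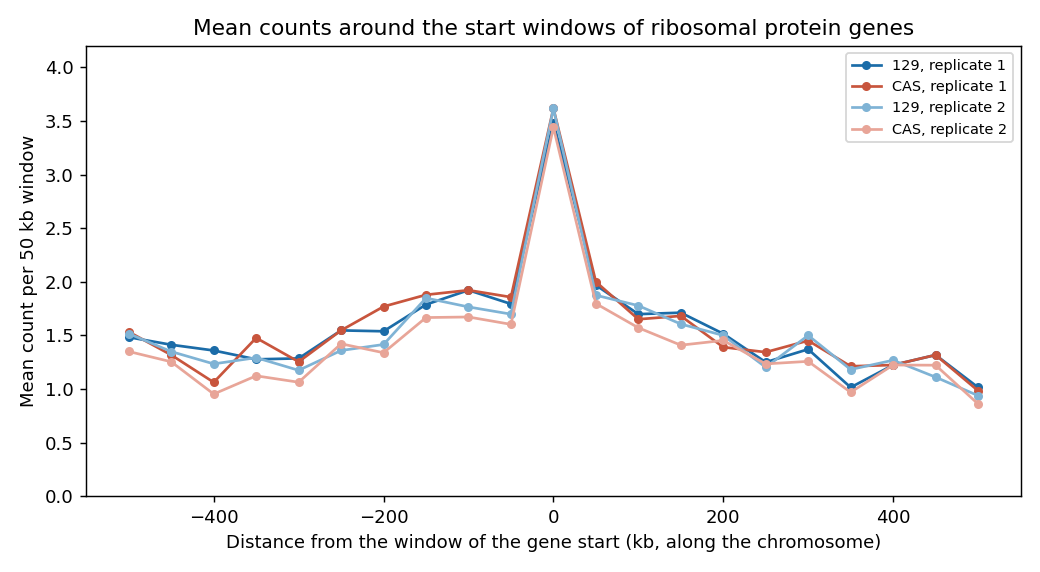
Mean count per 50 kb window (y axis) from 500 kb before to 500 kb after the start windows of 68 ribosomal protein genes or gene pairs (x axis, kb along the chromosome), 1 line per allele and replicate. All 4 lines peak in the start window, between 3.44 and 3.62, and the lines of 129 and CAS run close together.

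Summed over windows, both replicates gave nearly the same count at these loci and in other windows with 2 coding starts. Replicate 2 had more counts in the table as a whole. The 72 windows held 512 counts in replicate 1 and 507 in replicate 2, a ratio of 0.990, against 1.33 over all windows, 1.05 over windows with a coding start and 1.76 over windows with no coding gene. In the 13 windows where the ribosomal protein gene was the sole coding start the ratio was 1.22, against 1.10 in other windows with 1 start. In other windows with 2, 3, 4 and 5 starts the ratio fell from 1.01 to 0.940, 0.899 and 0.890. With 6 or more starts it was 0.789. By count, the ratio was 1.09 in member windows with 15 to 19 counts and 1.11 in those with 20 or more, against 1.17 and 1.12 in all such windows. It was 0.720 and 0.856 in member windows with 5 to 9 and 10 to 14 counts, against 1.35 and 1.21. Replicate 2 was lower in 29 member windows (40.3%) and higher in 27 (37.5%). In windows with a coding start the shares were 28.4% and 36.2%, and in all windows with a count 19.5% and 57.7%. The largest drop was at Rps28, of the small subunit, with 3 and 3, then 0 and 0. Drops of 5 counts were found at the large-subunit genes Rpl6 (2 and 3, then 0 and 0), Rpl22 (4 and 4, then 1 and 2) and Rpl38 (3 and 6, then 2 and 2). The largest rises were at Rps26 (7 counts over both alleles, then 14) and Rps19 (10, then 16). Over the 72 windows the counts of the replicates correlated at r = 0.811, near the 0.818 over all windows; the windows share 2 libraries.

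The second comparison asks whether 1 parental genome was more accessible at these loci. The alleles were close to equal when summed. No member window passed the test of a difference, but with 2 replicates and low counts that test cannot show that the alleles of a window were equal. The 129 share, the 129 count over that of both alleles, was 48.6% in replicate 1 (44.2 to 53.1%, exact 95% interval after Clopper and Pearson) and 51.1% in replicate 2 (46.6 to 55.5%), or 49.9% ± 1.73 (SD, n = 2). Over all windows it was 49.4% ± 0.770 (SD, n = 2), and over windows with a coding start 49.9% ± 0.762 (SD, n = 2). Intervals and counting errors cover counting only and assume independent counts, whereas alleles of a window varied less than that (variances below). The summed windows leaned to CAS in replicate 1 and to 129 in replicate 2, and both intervals held 50%. Small-subunit windows had 50.5% and 51.1%, and large-subunit windows 47.2% and 49.6%. The 13 windows in which the ribosomal protein gene was the sole coding start had 53.7% and 53.0%.

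**Figure D4:**
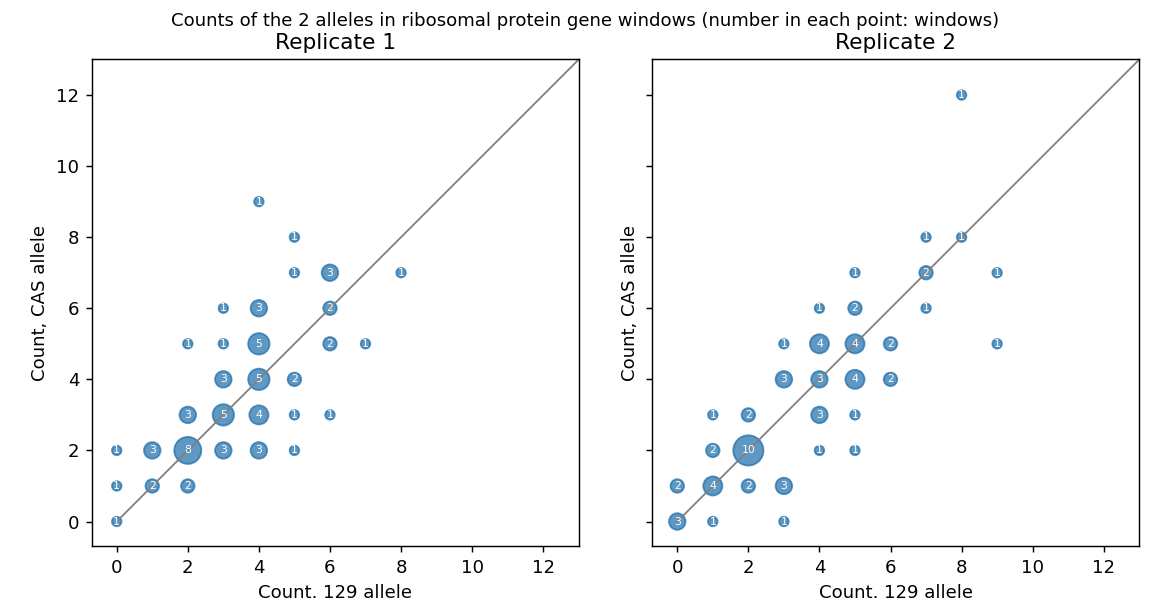
Counts on the 129 (x axis) and CAS allele (y axis) in the 72 ribosomal protein gene windows, 1 panel per replicate; point area and the number inside give how many windows share a position, and the grey line marks equal counts. Points lie on both sides of the line in both replicates, with the largest distance at Rpl37 in replicate 1 (4 on 129, 9 on CAS).

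Whole chromosomes of this line depart from equal alleles, so the members were set beside their chromosomes. Weighted by the members' counts, the chromosomes gave 129 shares of 48.5% and 49.5%, and the members lay 0.141 and 1.58 percentage points above them. Chromosome 7 held 13 of the 72 windows, with 129 shares of 45.2% and 50.0% in the members and 45.9% and 46.7% over the chromosome. On chromosome 10, where 129 has the higher share (59.8% and 55.6%), the 5 member windows had 48% and 60%. On chromosome 18, where CAS has the higher share (129 at 44.6% and 44.8%), the 3 windows of Rps14 and Rpl17 had 45.5% and 38.1%.

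Window by window, edgeR's quasi-likelihood test called 0 of the 72 windows for a difference between alleles (0% of 34417 tested windows were called on 129 and 0% on CAS at an adjusted p threshold of 0.05). At an unadjusted p under 0.05 it gave 0 of the 72, against 2.64% of all tested windows. With the replicate as a block 0.189% of all windows passed that level, and with the DESeq2 Wald test 0.0407%, and both gave 0 calls and 0 such windows among the 72. The lowest unadjusted p among the 72 in edgeR was at Rpl5, the large-subunit protein that carries 5S RNA, at 0.0896 (adjusted p = 0.999). The counting SE of a window's log2 ratio, summed over the replicates, was at least 0.49 and at the median 0.78 in the 70 windows with counts on both alleles. No window's ratio was further from 0 than 1.47 of its counting SE, at Rpl5.

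In raw counts, the shares of windows with the same direction in both replicates were near those of windows with a coding start. The 129 allele was higher in both in 7 windows (9.72%), against 8.96% of all windows and 10.8% of windows with a coding start. CAS was higher in both in 9 windows (12.5%), against 9.87% and 11.2%. With counts scaled to the column totals, which turns ties into differences, the numbers were 30 on 129 and 9 on CAS. The replicates went opposite ways in 15 windows (20.8%), against 7.59% and 10.4%. The other 41 windows had equal alleles in at least 1 replicate, as did 32329 of all 43941 windows, those without counts included. In 9 member windows (12.5%) the alleles were equal in both replicates, against 34.7% of all windows and 28.4% of windows with a coding start. These bases include windows without counts (21.7% of all windows and 11.4% of those with a coding start), whereas every member window had a count. Of the 34417 windows with a count, 129 was higher in both replicates in 3939 and CAS in 4338. The replicates went opposite ways in 3335 of them, and 5736 had equal alleles in both. Ties are rarer where counts are high. Among all windows with 15 to 19 counts 18.8% had more 129 counts in both replicates and 20.6% more CAS counts, and of the 19 member windows in that range 3 and 4 were. With 20 counts or more the shares were 22.5% and 23.4%, and of 15 member windows 1 and 2. The shares of members with a shared direction were near or below these values.

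The windows higher on 129 in both replicates included those of Rpl5, Rplp1, Rps26, Rpl10l, Rps21 and Rpl41. Rps26 had 4 and 3, then 9 and 5, a log2 ratio of the summed alleles of 0.70 (counting SE 0.65; edgeR adjusted p = 0.999). Rplp1 had a ratio of 0.85 (counting SE 0.80; edgeR adjusted p = 0.999). Both ratios were about the size of their counting SE. The windows higher on CAS in both included those of Rpl7, Rpl14, Rpl17 (2 windows), Rpl18, Rpl19, Rpl29 and Rps16. A single window differed by 2 or more counts in the same direction in both replicates, that of Rpl17, which lines the nascent chain tunnel (chromosome 18, 75000001 to 75050000). It had 4 and 6, then 5 and 7, a log2 ratio of -0.53 (counting SE 0.63; edgeR adjusted p = 0.999). Windows of that kind made up 1.26% (129) and 1.5% (CAS) of the table, and 1.7% and 1.93% of windows with a coding start. With both directions together they made up 8.42%, 12% and 19.2% of all windows with 10 to 14, 15 to 19 and 20 or more counts, against 0 of 15, 0 of 19 and 1 of 15 member windows. Rpl37 and Rpl8 differed by 2 or more in opposite directions in the replicates (Rpl8: 4 and 2, then 1 and 3).

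Alleles of a window were alike in count. In windows with 4 or more counts in a replicate, the alleles differed by at most 1 count in 46 of 62 windows (74.2%) in replicate 1 and 42 of 57 (73.7%) in replicate 2, against 73.5% and 64.4% of all such windows. The variance between alleles was 0.268 and 0.232 of the binomial variance, against 0.333 and 0.465 over all windows. The largest difference between alleles was 5 counts in replicate 1 and 4 in replicate 2.

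Other genes of the translation apparatus had lower median counts in 3 lists, taken over every window a gene overlaps. Longer genes, such as Eif4g3 with 6 windows, add windows beyond that of their start, whereas most member windows were start windows. The lists were not matched to the members by number of coding starts, and a gap between start windows alone was not tested. Mitochondrial ribosomal protein genes, which serve the organelle's own ribosome, had a median of 8 counts in 88 windows (71 of 78 genes with a row). Ribosome biogenesis genes, such as Ncl (nucleolin; 7 and 8, then 8 and 8 over 2 windows), had 8 in 71 windows. Translation factor genes, a list made by symbol that also holds the regulators Eif4ebp1 and Eef2k, had 7.5 in 84 windows. Their 129 shares were 50.9% ± 2.30, 51.3% ± 2.76 and 48.8% ± 0.494 (SD, n = 2). In these 3 lists 16, 12 and 6 windows favoured 129 in both replicates, and 13, 9 and 12 favoured CAS. Ribosomal protein genes outside the symbol rule had a median of 15 in 6 windows. Their 129 share was 44.5% ± 3.33 (SD, n = 2), and 0 of these windows favoured 129 and 3 favoured CAS in both replicates. Among them Rack1, a scaffold on the small subunit, had 6 and 7, then 6 and 11, Rps3a1 had 1 and 2, then 3 and 4, and Fau had 2 and 3, then 1 and 3. The sum of Rpl36al is that of the window it shares with the member Rps29. The 10 listed regulators of these genes included Myc, a transcription factor that drives ribosome synthesis (4 and 5, then 5 and 6), and Gabpa, an ETS factor (10 and 9, then 13 and 10 over 2 windows). The 17 windows of the 8 regulators with a row had a median of 7.

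**Figure D5:**
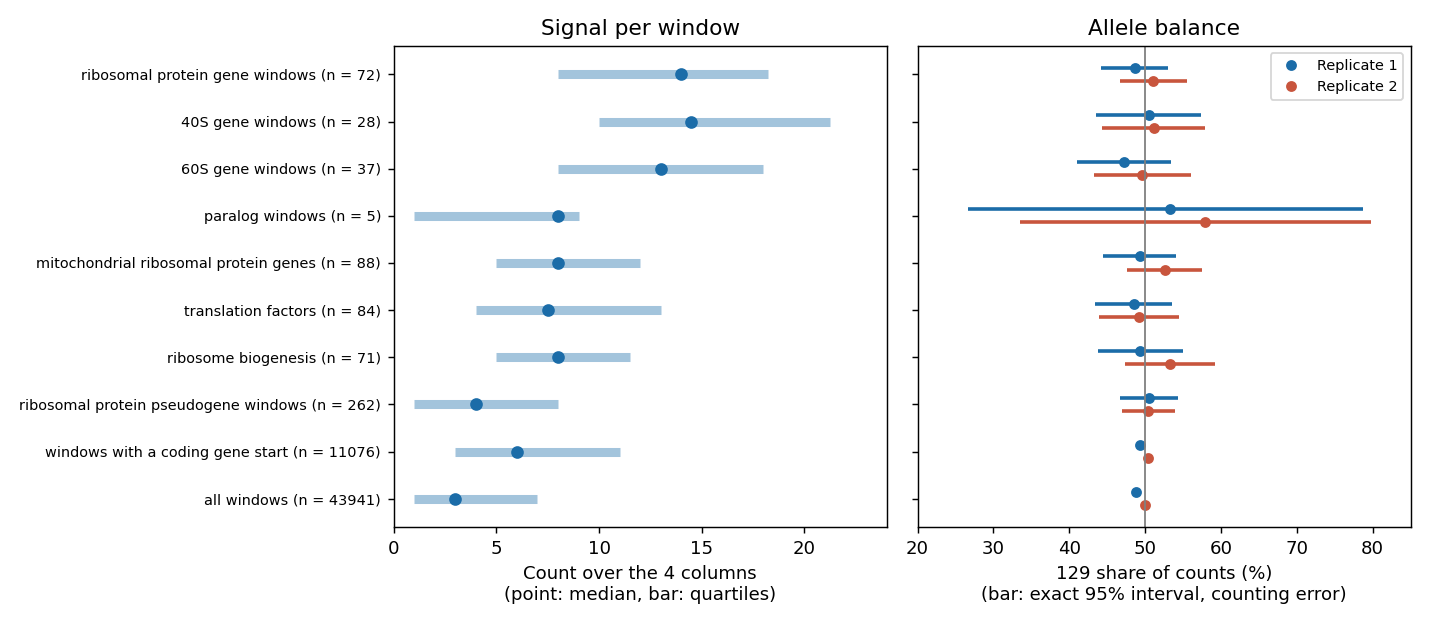
Left, median (point) and quartiles (bar) of the count over the 4 columns for windows of each gene list; right, the 129 share in percent by replicate with exact 95% intervals. Ribosomal protein gene windows have the median of 14, and the intervals of their share hold 50% in both replicates.

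The windows of 6 autosomal members were not analysed here, being among the grid positions without a row: Rpl31, Rpl12, Rpl35, Rps9, Rpl15 and Rpl30. They are 7.79% of the 77 autosomal members, against 14% of 11240 autosomal protein-coding genes that lie in 1 window. The X-linked members Rpl10, Rpl36a, Rpl39 and Rps4x were not analysed here. The start window of Rpl17 could not be told, since it spans 2 windows and no start was found for it.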

How the data were processed

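The authors deposited counts, whole numbers per 50 kb window, allele and replicate, for 19 autosomes; per the submitters' processing notes, mm10 was the build and bedtools, SAMtools, MACS2 and Bowtie2 were among the tools, in roles not stated. All 4 columns were used, and 0 per-sample columns were left out. The members and lists were chosen with earlier results of these data known. A gene was assigned every window it overlaps by 1 base or more. Its start came from the RefSeq promoter table, or, where that held none, from the window containing the whole gene; for 2048 coding genes neither applied. Alleles were tested with edgeR 4.0.16 (quasi-likelihood, TMM scaling, windows with 1 count or more, Benjamini-Hochberg over 34417 windows); DESeq2 1.42.0 was an alternative. The counting SE is derived from summed counts. Both alleles of a replicate were read in the same library, which pairs them, and their deviations from the allele means correlated at r = 0.270 over windows with a count and 0.244 over member windows. With 2 replicates an exact permutation test cannot go below p = 0.333 unpaired or 0.5 paired, so none was made. Genes named in full were the members with the highest start windows (12, with ties at the tenth), paralogs and their namesakes, stalk genes, Rpsa and windows with a difference of 2 or more on 1 allele in both replicates; some of these are not reported here, and others were chosen after their values were seen. Pseudogene windows, windows without chromosome 7 and the replicate and neighbour comparisons were also added after seeing the data.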

Additional observations from a re-analysis of the deposited data

How the results depend on the processing

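No member window was called (0) in any of the 7 alternatives that tested the members: with the replicate block, with DESeq2 size factors, with a library size shared by the alleles, by DESeq2's Wald test, among windows above the median, at an adjusted p threshold of 0.1, and in windows joined in pairs. A minimum count of 10 left 40 windows and no member. In the whole table a shared library size gave 1 call and the other settings 0. The replicate block changed no call (0 member windows). In the 14 windows where no other coding gene starts (the 13 with the member as sole start and a Rpl17 window with no known start), the 129 share was 52.7%, the median count 14.5 and the ratio of replicates 1.19. The 129 share was between 49.6% and 50.6% under the other alternatives that kept both replicates, and between 48.6% and 51.1% without 1 replicate. Windows higher in both replicates by 2 or more counts numbered 0 on 129 and 1 on CAS. Scaling to the column totals, which gives ties to 129, gave 30 on 129 and 9 on CAS. The median count was 14.1 with scaled counts and 12 without chromosome 7 (13 of the windows). From either replicate alone, doubled to the scale of 2 replicates, it was 14. Start windows above both neighbours numbered 39 of 61 without either replicate and 39 of 52 without chromosome 7. The log2 differences of Rpl5, Rplp1, Rps26 and Rpl17 kept their sign in all 24 alternative fits. The cause of these shifts was not tested.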

Other observations

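Processed pseudogenes are copies of messenger RNA inserted elsewhere in the genome, and ribosomal proteins have many. The annotation held 317 pseudogenes named after these genes, a list chosen after seeing the data. Those at positions with a row in the table lay in 262 windows, of which 0 were windows of a member. The median count of these 262 windows was 4, against 14 at the members and 3 over all windows. In the 112 of these windows without a coding gene it was 3. The 129 share was 50.5% and 50.4% in replicates 1 and 2, and 26 windows had more 129 counts in both replicates while 25 had more CAS counts.

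Among members with a promoter row and a start window in the table, the 22 with an oligopyrimidine run at the start had a median of 15.5 counts in that window (range 1 to 25), and the 30 without had 9.0 (range 1 to 29). For CCGGAAG the medians were 12 (20 genes with it) and 11 (32 genes without). These splits were made after seeing the data and were not tested.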
